A study of Rattus norvegicus with 6 samples.

Results

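In INS-1 rat insulinoma cells, 1975 accessible regions had at least 2-fold more ATAC-seq signal in Med14 S983A than in WT cells in every treatment, which is 2.35% of 83865 shared peaks. A shared peak was called in all 6 libraries, averaged at least 1 FPKM over them and lay outside the mitochondrial chromosome. Peaks in 4 chromosome stretches picked for a shift between the genotypes, 1 each on chromosomes 4, 5, 9 and 15, were also left out by the rule. The difference was taken on the log2(FPKM + 0.5) scale as Med14 S983A minus WT, and a peak entered the set when it reached 1 in CON, in Ex-4 and in FSK. These values chose the peaks, so the genotype difference itself is described below and was not tested. The merged list held 220490 peaks. All 6 libraries had a call at 86576 of the nuclear ones, and 86465 of those averaged 1 FPKM or more.

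The experiment had 6 groups with 1 library each. WT INS-1 cells and INS-1 cells with the S983A change knocked into Med14 were moved to serum-free medium and left untreated (CON), or were given 10 nM exendin-4 (Ex-4) or 10 µM forskolin (FSK) for 1 h. The mutant lines of the study were grown from sorted single cells after CRISPR editing and puromycin selection, and no source used here says which line gave the 3 mutant libraries or whether cultures were pooled. With 1 library per group there is no replicate error, every value describes these libraries, and the genotype cannot be told apart from the clone or from the library preparation.

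ATAC-seq uses the Tn5 transposase, which inserts sequencing adapters where DNA is not wrapped in nucleosomes, so reads pile up at open promoters and enhancers. Mediator is the large complex that connects transcription factors on enhancers to RNA polymerase II, and Med14 is the scaffold that holds its modules together. Ex-4 activates the GLP-1 receptor and FSK activates adenylyl cyclase directly. Both raise cAMP, which activates protein kinase A, and the S983A change replaces a serine that this kinase phosphorylates with an alanine that cannot be phosphorylated.

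Depth was high for all 6 libraries. Reads in peaks, recovered from the steps between low FPKM values, ranged from 134300000 in Med14 S983A CON to 251200000 in WT FSK. The least covered of the 1975 peaks in any library rested on 36.0 reads. The standard error of the CON difference from counting alone had a median of 0.091 and reached 0.19 on the log2 scale, and it covers counting error only. The median over all shared peaks of the difference of single peaks was positive, at 0.045 in CON, 0.046 in Ex-4 and 0.030 in FSK. The library medians used for centring were taken over the nuclear peaks called in all 6 libraries, before the other parts of the rule. They differed the other way. The mutant median was below the WT median by a log2 difference of -0.12 in CON, -0.11 in Ex-4 and -0.17 in FSK, so that centring the libraries would raise every difference by these amounts.

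The 1975 peaks were weakly accessible in WT cells and of ordinary accessibility in the mutant. Their median level was 2.69 FPKM in WT CON, 2.67 in WT Ex-4 and 2.58 in WT FSK, where all shared peaks had medians of 8.85, 8.77 and 8.46 FPKM. In Med14 S983A the medians of the set were 10.9 FPKM in CON, 10.8 in Ex-4 and 9.88 in FSK, against 8.003, 8.02 and 7.38 FPKM for all shared peaks. The middle of the set therefore lay under the middle of all shared peaks in every WT library and above it in every mutant library. The rule used these levels, so they describe the choice. Shared peaks at least 2-fold lower in the mutant in every treatment showed the mirror, with medians of 11.1 FPKM in WT CON and 2.60 in Med14 S983A CON.

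**Figure D1:**
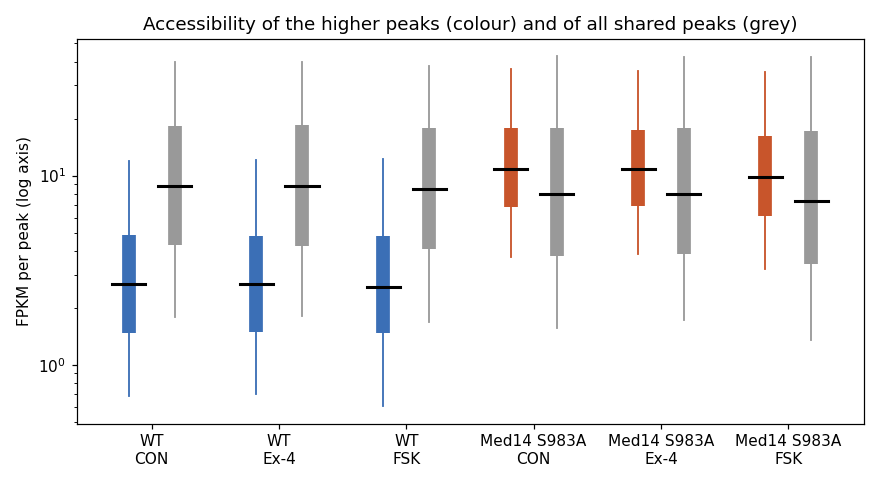
FPKM per peak on a log axis in the 6 libraries, for the 1975 higher peaks (colour) and for all 83865 shared peaks (grey), with a black line at the median, a thick bar between the quartiles and a thin line from the 5th to the 95th percentile over peaks. The coloured medians sit at 2.58 to 2.69 FPKM in WT and 9.88 to 10.9 FPKM in Med14 S983A, below and above the grey medians respectively.

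Ranks within a library restate these levels, which chose the peaks, on a scale of shared peaks. The median peak of the set stood at percentile 11.9 of the shared peaks in WT CON and at percentile 59.9 in Med14 S983A CON. In WT CON 903 of the peaks (45.7%) belonged to the least accessible 10% of shared peaks, and in Med14 S983A CON 7 (0.354%) did. At the other end, 3 peaks of the set were in the most accessible 10% in WT CON and 124 (6.28%) in Med14 S983A CON. The values in Ex-4 and FSK were close to these, with median percentiles of 11.7 and 12.2 in WT and 59.8 and 59.1 in the mutant.

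The WT level is part of the difference that chose the peaks, so the shares of members by WT level describe the choice and are no result. Of shared peaks with a WT mean under 1 FPKM, 45.8% were in the set. That share was 5.25% for a WT mean of 1 to 5 FPKM, 1.59% for 5 to 10 FPKM and 0.375% above. The set held 208 peaks of the lowest class, 1296 of the next, 328 with 5 to 10 FPKM and 143 with a WT mean of 10 FPKM or more. Because every shared peak must average 1 FPKM over the 6 libraries, a peak under 1 FPKM in WT had to be higher in the mutant to be counted at all.

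Most of the differences were moderate. The median difference was 1.59 in CON (3.02-fold), 1.62 in Ex-4 (3.07-fold) and 1.49 in FSK (2.81-fold) on the log2 scale, whereas the median over all shared peaks was 0.045, 0.046 and 0.030. In every treatment 1602 peaks (81.1%) were at least 2-fold higher without reaching 4-fold in all 3. A further 291 peaks (14.7%) reached 4-fold but not 8-fold in all 3 treatments, 64 reached 8-fold but not 16-fold, and 18 reached 16-fold. The mirror rule, at least 2-fold lower in the mutant in all 3 treatments, was met by 6417 shared peaks (7.65%), of which 5097 (79.4%) were in the 2 to 4-fold class and 26 reached 16-fold.

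The size classes are cut on the ratio of the same values, so the levels of both genotypes in them describe the classes and are no result. The median over peaks of the mean WT level fell from 3.11 FPKM in the 2 to 4-fold class to 1.70 in the 4 to 8-fold class, 0.998 in the 8 to 16-fold class and 0.752 FPKM in the class of 16-fold or more. Over the same classes the mutant level went from 9.58 to 12.3, 18.3 and 33.0 FPKM.

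The 10 peaks with the largest difference in their least favourable treatment were near the bottom of the scale in WT and strongly open in the mutant. Over these 10 peaks the WT libraries ranged from 0.242 to 2.13 FPKM and the mutant libraries from 22.5 to 73.9 FPKM. The mutant mean was between 34.3 and 66.8 times the WT mean. They lay on chromosomes 1, 4, 6, 7, 9 and 17, with 2 each on chromosomes 1, 6, 7 and 9.

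The peak on chromosome 6 from 132195309 to 132196110 of the rn6 assembly led this list. It had 0.379 FPKM in WT CON, 0.841 in WT Ex-4 and 1.52 in WT FSK, and 40.01, 45.6 and 63.6 FPKM in Med14 S983A CON, Ex-4 and FSK. The log2 differences were 5.53 in CON, 5.10 in Ex-4 and 4.99 in FSK, with a counting error of 0.094 in CON. Both genotypes had their highest value under FSK and their lowest in CON. A second peak of the list, on chromosome 6 from 132196672 to 132197384, lay immediately beyond it. Its values were 1.56, 2.10 and 2.13 FPKM in WT CON, Ex-4 and FSK and 65.4, 67.6 and 73.9 FPKM in the same order in the mutant, so the 2 neighbouring peaks shared a low WT signal.

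At chromosome 17 from 4793920 to 4794548 signal was also low in all WT libraries, at 0.725 FPKM in CON, 0.742 in Ex-4 and 0.590 in FSK. The mutant libraries had 39.1, 35.8 and 32.9 FPKM, giving log2 differences of 5.01, 4.87 and 4.94. On chromosome 9 from 119261603 to 119262353 the WT values were 0.774, 0.554 and 0.488 FPKM and the mutant values 38.5, 33.9 and 27.5 FPKM. Neither of these 2 peaks was higher under FSK than in CON in either genotype.

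The other 6 of the list repeated this form. Chromosome 1 from 31641762 to 31642782 went from 0.364 to 0.543 FPKM over the WT libraries and from 27.4 to 29.1 FPKM over the mutant libraries. On chromosome 7 from 137340970 to 137341427 the WT values were 0.909 to 1.05 FPKM and the mutant values 33.98 to 36.3 FPKM. Chromosome 4 from 145427138 to 145428788 had 0.953 to 1.10 FPKM in WT and 33.9 to 37.3 FPKM in the mutant. The WT and mutant libraries of these 3 peaks did not come near each other, and within a genotype the treatments differed far less than the genotypes.

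**Figure D2:**
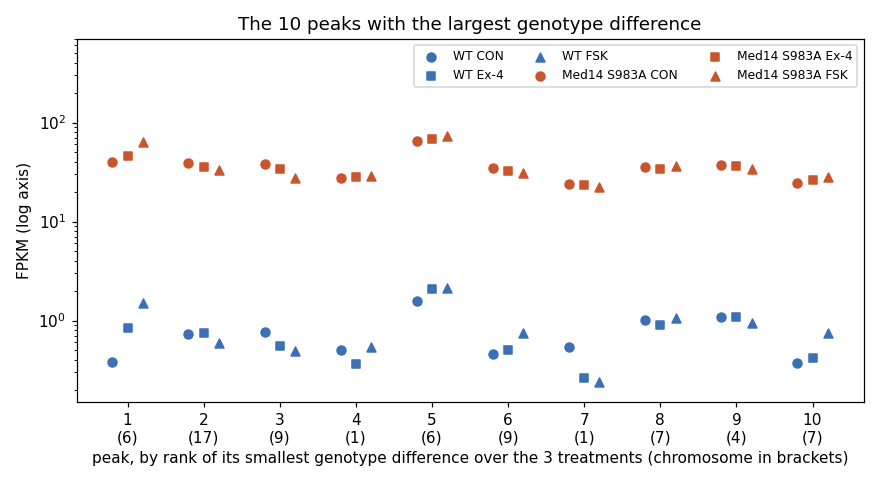
FPKM on a log axis of the 10 higher peaks with the largest smallest difference over the 3 treatments, 1 point per library, with WT in blue, Med14 S983A in orange and the treatment by symbol. All WT points lie between 0.242 and 2.13 FPKM and all Med14 S983A points between 22.5 and 73.9 FPKM.

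The 5 most accessible members had strong signal in both genotypes. The peak on chromosome 4 from 58506996 to 58507746 had 39.4, 41.6 and 46.0 FPKM in WT CON, Ex-4 and FSK, and 87.5, 98.1 and 104 FPKM in the mutant. Its log2 differences were 1.14, 1.23 and 1.16. Next in level, chromosome 1 from 46358811 to 46359686 had 37.3, 35.9 and 28.4 FPKM in WT and 95.2, 85.1 and 72.3 FPKM in the mutant, and both genotypes had their lowest value under FSK. Over the 5 peaks, WT libraries ranged from 23.3 to 46.0 FPKM and mutant libraries from 59.1 to 104 FPKM, with no overlap.

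At the edge of the rule, the 5 peaks just inside and the 5 just outside had smallest differences that all round to 1.00, and their counting errors were between 0.026 and 0.10. The innermost, on chromosome 20 starting at 35283506, had 2.79, 3.14 and 5.25 FPKM in WT CON, Ex-4 and FSK and 7.54, 10.02 and 10.997 FPKM in the mutant. A peak just outside, on chromosome 19 starting at 41696359, had 4.71, 5.38 and 15.5 FPKM in WT and 16.9, 18.8 and 31.5 FPKM in the mutant. These edge peaks cannot be separated by counting error, and both were at their highest under FSK in either genotype.

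The difference of a peak varied over treatments about as much in the set as elsewhere. Its range over CON, Ex-4 and FSK had a median of 0.28 on the log2 scale and was at most 0.5 in 1562 peaks (79.1%), against a median of 0.24 and 81.6% over all shared peaks. Only 39 peaks of the set had a range of 1 or more. The smallest of the 3 differences was the FSK one in 987 peaks, the CON one in 552 and the Ex-4 one in 436. The median difference of all shared peaks was also lowest in FSK, at 0.030 against 0.045 in CON and 0.046 in Ex-4. These counts were not made over all shared peaks and are not read as a trait of the set. In 1942 of the 1975 peaks every mutant library was above every WT library, a pattern that 26.9% of all shared peaks showed. The rule used these same libraries, so nothing is read from that count. Of the 33 peaks where the genotypes overlapped, 23 had WT FSK at or above Med14 S983A CON.

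Leaving 1 treatment out of the choice gives a genotype difference that the 2-fold rule did not use. Its libraries still counted for the calls in all 6 libraries and the mean of at least 1 FPKM. The peaks that passed are the 1975 members each time, so the 3 shares differ only by how many peaks were chosen. Of the 2182 peaks at least 2-fold higher in Ex-4 and in FSK, 90.5% were also at least 2-fold higher in CON, where 4.11% of all shared peaks were, and their median CON difference was 1.53. Of 2127 peaks chosen in CON and FSK, 92.9% passed in Ex-4, with a median of 1.57 and a background of 4.22%. Of 2681 peaks chosen in CON and Ex-4, 73.7% passed in FSK, with a median of 1.29 and a background of 3.29%. The difference left out was at or below 0 in 6, 2 and 20 of these peaks, respectively. The 3 library pairs may share a clone and a preparation, so these shares say that the difference was repeated in other libraries and not that it was repeated in other lines.

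Read the other way, the members made up 57.4% of the 3443 shared peaks at least 2-fold higher in CON, 55.8% of the 3539 in Ex-4 and 71.6% of the 2758 in FSK. The number of members is the same in each share, so the shares differ only by how many peaks passed in each treatment.

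Stimulation for 1 h left most of the set where it was. FSK changed 1343 of the 1975 peaks (68.0%) by less than 1.5-fold in both genotypes, and 67.7% of all shared peaks fell in that class. Ex-4 changed 1892 (95.8%) by less than 1.5-fold in both genotypes, against 93.7% of all shared peaks. Both shares were near the background, so this class did not set the peaks apart. At 2-fold, however, the mutant shares of the set under FSK were below the background, as given below. The median change of the set in WT was -0.020 under Ex-4 and -0.087 under FSK, that in the mutant -0.027 and -0.16, where the medians of all shared peaks were -0.017, -0.14, -0.021 and -0.13. The WT FSK median of the set turned to 0.012 when FSK was left out of the choice, and centring the libraries moved it to -0.026 and the mutant FSK median to -0.050.

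**Figure D3:**
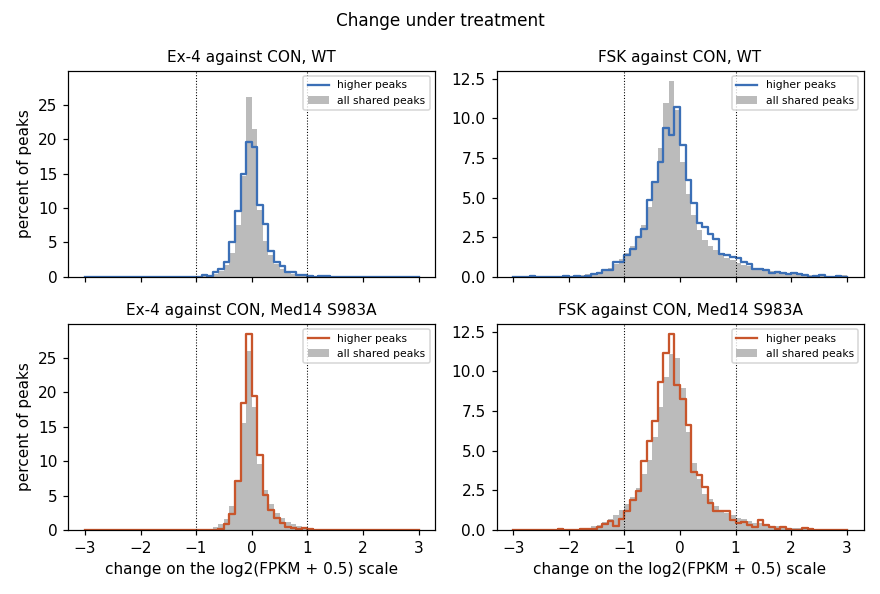
Percent of peaks per 0.1 of change on the log2(FPKM + 0.5) scale, for Ex-4 (left) and FSK (right) against CON in WT (top) and Med14 S983A (bottom), for the 1975 higher peaks (coloured line) and all shared peaks (grey bars), with dotted lines at a 2-fold change and changes beyond 3 in the outermost bins. The distributions overlap in each panel, and in Med14 S983A the higher peaks spread less. Their 5th to 95th percentiles there were -0.27 to 0.36 under Ex-4, against -0.34 to 0.50 for all shared peaks. Under FSK they were -0.82 to 0.77, against -0.96 to 0.95. At or above a 2-fold rise under FSK were 121 higher peaks in WT and 59 in Med14 S983A.

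FSK raised 121 of the 1975 peaks (6.13%) at least 2-fold in WT, close to the 5.92% of all shared peaks, and 59 (2.99%) in Med14 S983A, below the 4.53% of all shared peaks. It reduced 66 (3.34%) in WT against a background of 3.70%, and 43 (2.18%) in the mutant against 4.34%. Raised in both genotypes were 45 peaks (2.28%, background 3.61%), and reduced in both were 25 (1.27%, background 2.08%). Ex-4 raised 5 peaks in WT (background 0.429%) and 4 in the mutant (background 0.621%) and reduced none of the set at least 2-fold in either genotype, where the backgrounds were 0.062% and 0.0489%.

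These shares depended on which treatments chose the peaks, since a peak that FSK raises in WT toward the mutant level fails the FSK part of the rule. Among the 2681 peaks chosen in CON and Ex-4 alone, FSK raised 13.1% at least 2-fold in WT and 5.37% in Med14 S983A. Among the 2182 chosen in Ex-4 and FSK the shares were 5.68% and 3.21%. Under each choice the share raised was larger in WT than in the mutant, as it was over all shared peaks (5.92% in WT and 4.53% in Med14 S983A). CON was in both contrasts and, except in the last of these choices, also in the rule, and no test of this difference was possible.

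The 121 peaks that FSK raised in WT started from a low WT level. Their median level was 1.55 FPKM in WT CON, 1.97 in WT Ex-4 and 5.04 in WT FSK, and 8.70, 11.7 and 16.8 FPKM in the mutant. In 98 of the 121, Med14 S983A CON was at or above WT FSK. In the other 23 WT FSK was above Med14 S983A CON. No member outside the 121 could reach it, since the rule puts Med14 S983A CON at least 2-fold above WT CON. On the log2 scale FSK changed the 121 peaks by a median of 1.33 in WT and 0.84 in the mutant, and Ex-4 by 0.36 and 0.32. The peaks were chosen on the WT FSK change and on the genotype difference, so both are part of the choice.

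The peak with the largest FSK rise on the mean of both genotypes lay on chromosome 3 from 28601021 to 28602072. It had 1.30 FPKM in WT CON, 2.50 in WT Ex-4 and 12.9 in WT FSK, and 7.69, 12.6 and 30.0 FPKM in the mutant. FSK changed it by 2.90 in WT and by 1.90 in the mutant on the log2 scale. Here the stimulated WT library exceeded the untreated mutant library, and both genotypes climbed from CON through Ex-4 to FSK.

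On chromosome 1 from 43589713 to 43590902 the levels were 2.51, 5.21 and 14.3 FPKM in WT CON, Ex-4 and FSK and 8.27, 18.1 and 44.2 FPKM in the mutant. Its FSK changes were close, 2.29 for WT and 2.35 for the mutant. On chromosome 12 from 41631131 to 41631724 the FSK changes were 2.25 and 2.28 on the scale with the pseudocount, with levels of 0.801, 1.88 and 5.70 FPKM in WT and 3.06, 7.52 and 16.8 FPKM in the mutant. At the second peak the pseudocount of 0.5 FPKM lowers the change more in WT, whose CON level was near it.

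The other 2 of the 5 largest rises lay close together on chromosome 9, from 119539800 to 119540267 and from 119543633 to 119544386. The first had 0.947, 1.65 and 7.75 FPKM in WT CON, Ex-4 and FSK and 5.12, 5.43 and 19.8 FPKM in the mutant, so Ex-4 moved the mutant little. The second had 0.912, 1.38 and 5.89 FPKM in WT and 3.29, 9.87 and 18.1 FPKM in the mutant, and its mutant Ex-4 change of 1.45 was the largest Ex-4 change of any member in either genotype.

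The 66 peaks that FSK reduced in WT differ between genotypes under FSK by the rule itself. Their medians were 3.56 FPKM in WT CON, 3.29 in WT Ex-4 and 1.31 in WT FSK, and 12.3, 10.7 and 5.76 FPKM in the mutant, with median FSK changes of -1.15 and -0.87. The largest fall was on chromosome X from 109930863 to 109931343, where WT had 8.87, 7.19 and 1.01 FPKM in CON, Ex-4 and FSK and the mutant 21.1, 16.2 and 4.24 FPKM. FSK changed it by -2.63 in WT and by -2.19 in the mutant. A second, on chromosome 4 from 183446589 to 183447375, went from 3.12 to 1.75 and 0.400 FPKM in WT and from 21.7 to 13.9 and 7.99 FPKM in the mutant, so that the FSK-treated mutant still exceeded the untreated WT.

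The set was spread over the genome with a denser share on chromosome 9. The share of shared peaks that belonged to it was 5.91% on chromosome 9 (147 of 2489), 3.71% on chromosome 12, 3.28% on chromosome 20 and 3.19% on chromosome 5. It was lowest on chromosome X at 1.24% (31 of 2491) and chromosome 17 at 1.41%. All other chromosomes were between 1.86% and 2.80%, around the 2.35% of the whole.

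**Figure D4:**
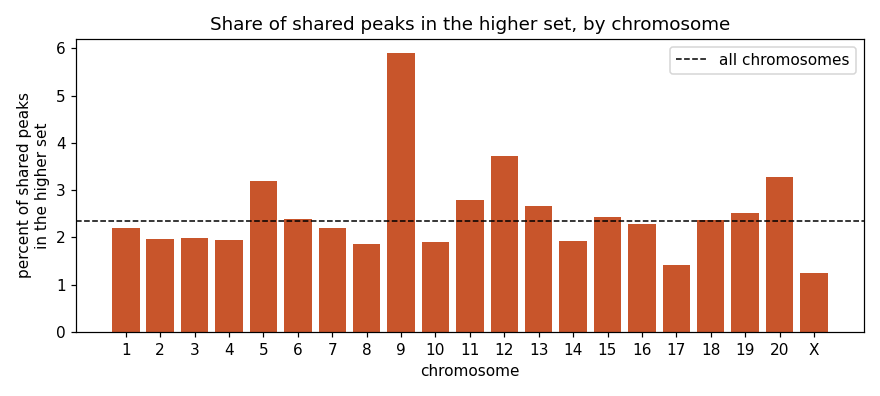
Percent of the shared peaks of each chromosome that belong to the higher set, as bars starting at 0, with the share over all chromosomes (2.35%) as a dashed line. Chromosome 9 stands highest at 5.91% and chromosome X lowest at 1.24%.

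On chromosome 9 the peaks were concentrated beside the left-out stretch, which ran from 79471184 to 111212494 and was picked for raised signal in the mutant. In the 10 Mb after it 72 of 266 shared peaks (27.1%) were in the set, and in the 10 Mb before it 31 of 229 (13.5%). On the rest of the chromosome the share was 44 of 1994 (2.21%), close to the 2.25% of all other chromosomes together. The shared peaks outside the set were shifted there too. Their median CON difference was 0.58 after the stretch and 0.24 before it, against 0.031 over all peaks outside the set, so the local excess of members moved with a shift of the peaks around them. The part of that shift in the members' differences was not tested.

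The 1 Mb window with the most members was chromosome 9 from 119 to 120 Mb, where 33 of 51 shared peaks were members. Their differences had medians of 1.73 in CON, 1.53 in Ex-4 and 1.49 in FSK, and the lowest was 1.04. The other peaks of the window had a median CON difference of 0.75. By number of members the next was chromosome 12 from 6 to 7 Mb, with 15 among 51 shared peaks, and there the peaks outside the set had a median of 0.14.

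Inside that chromosome 9 window lay the longest unbroken series of members, 10 consecutive shared peaks from 119182351 to 119376375, or 194 kb. Over the 10 peaks the medians were 9.30, 9.43 and 8.95 FPKM in WT CON, Ex-4 and FSK and 40.2, 37.2 and 32.5 FPKM in the mutant. Of the 10 peaks, 5 were above the WT CON median of all shared peaks, 8.85 FPKM. The peak from 119182351 to 119183080 had 16.4, 18.5 and 16.7 FPKM in WT and 48.7, 48.4 and 42.1 FPKM in the mutant, and the peak from 119332469 to 119333760 had 13.1, 13.6 and 12.8 FPKM in WT and 44.8, 43.7 and 41.3 FPKM in the mutant. The lowest WT levels were those of the peak from 119261603 to 119262353 described above, and the peak from 119376020 to 119376375 was also low, at 1.47 FPKM in WT CON. Other than in the first of these, the differences along the series ran between 1.31 and 2.23.

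Across the genome most members stood alone in the order of shared peaks, which for 2.35% of shared peaks is no sign of an even spread. Another member lay within 10 kb of 13.4% of members, against 2.88% of all shared peaks. Of the 1975 peaks 1635 (82.8%) had no member as their neighbour in the order of shared peaks, 127 series held 2 members and 14 held 3. Only 7 series had 4 or more, 3 of them in the chromosome 9 window. The others were 5 members over 23.6 kb on chromosome 1 from 221181388, 5 over 20.1 kb on chromosome 13 from 24932625, 4 over 14.3 kb on chromosome 12 from 6279431 and 4 over 21.9 kb on chromosome 19 from 20405869. Their median CON differences were 1.58, 1.51, 1.73 and 1.65.

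Windows in which the peaks outside the set were shifted held a small part of it. Of 2222 windows of 1 Mb with at least 10 shared peaks outside the set, 17 had a median of those peaks at least 1.5-fold higher in the mutant in CON, 8 on chromosome 9, 8 on chromosome 5 and 1 on chromosome 13. They held 0.541% of the shared peaks and 91 members (4.61%), 73 of them on chromosome 9. Members made up 20.04% of the shared peaks in these windows and 2.26% elsewhere. The other 1884 members lay outside such windows. Windows with fewer than 10 shared peaks outside the set were not judged and count as elsewhere. Among them was chromosome 9 from 74 to 75 Mb, where 11 of 20 shared peaks were members. The other peaks of that window had a median CON difference of 0.86.

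Peaks near a member leaned in the same direction. A second member lay within 10 kb of 264 members (13.4%), where 2.88% of all shared peaks had one that near. Of the 2149 shared peaks outside the set that lay within 10 kb of a member, 1451 (67.5%) were higher in Med14 S983A CON, against 52.5% of all peaks outside the set, and their median difference was 0.19 against 0.031. The median was 0.18 without the 17 shifted windows. A peak at least 2-fold lower in all treatments lay within 10 kb of 71 members (3.59%), against 7.29% of all shared peaks.

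The lean faded with distance. Peaks outside the set had a median CON difference of 0.32 when the nearest member was within 1 kb, 0.19 at 2 to 5 kb, 0.13 at 5 to 10 kb, 0.083 at 20 to 50 kb and -0.0024 at 500 to 1000 kb. The share of peaks that were members fell in the same order, from 23.1% within 1 kb of another member to 6.47% at 5 to 10 kb and 1.83% at 500 to 1000 kb. Peaks outside the set by construction failed the rule in at least 1 treatment, which keeps their medians low.

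**Figure D5:**
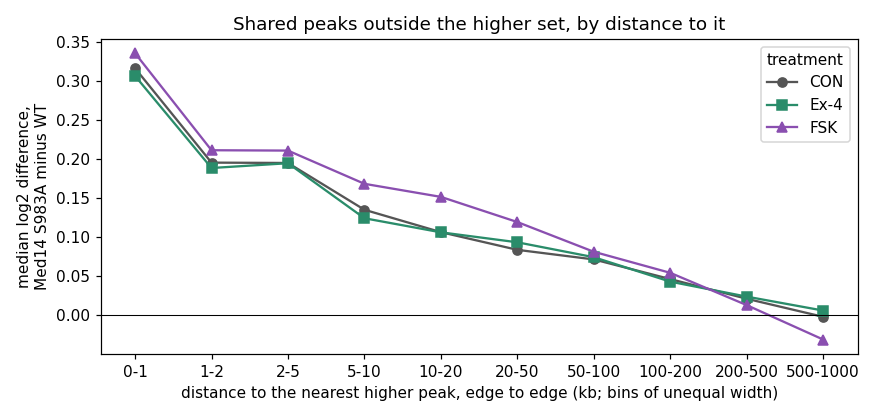
Median log2 difference, Med14 S983A minus WT, of shared peaks outside the higher set against their distance to the nearest higher peak in kb (bins of unequal width), 1 line for each treatment. In CON the median falls from 0.32 within 1 kb to -0.0024 at 500 to 1000 kb, and the Ex-4 and FSK lines fall alike.

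Peaks called in 1 genotype only were distributed around the set in the same sense. Of the members 292 (14.8%) had within 10 kb a peak called in all 3 mutant and no WT library, where 6.58% of all shared peaks and 5.35% of the lower set did. A peak called in all 3 WT and no mutant library lay within 10 kb of 200 members (10.1%), against 11.2% of all shared peaks and 17.6% of the lower set. The members were not unusually isolated, since their nearest shared peak was at a median of 5.09 kb and that of all shared peaks at 5.27 kb.

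Length distinguished the members little. Their median length was 616 bp, with quartiles of 450 and 864 bp, against 583 bp (quartiles 392 and 848 bp) for all shared peaks and 610 bp for the lower set. Members were rarest among the shortest peaks, at 1.08% of shared peaks under 300 bp, and ranged from 2.17% to 2.75% in the longer classes. The lower set was more concentrated in length, at 11.8% of shared peaks of 500 to 800 bp and 2.63% of those of 1200 bp or more. FPKM is per length, and all 6 libraries were measured over the same merged peaks, so length does not enter the genotype difference of a peak other than through the pseudocount.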

How the data were processed

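ATAC-seq of INS-1 cells gave 1 library for each of 6 conditions. According to the methods and the submitters' processing notes, reads were cleaned with Trim Galore, mapped to rn6 by BWA, filtered with SAMtools and used for peak calling with MACS2. The authors merged the peaks and deposited 1 FPKM value per merged peak and library, made with HOMER, with a list of the libraries in which each peak was called. FPKM are fragment counts divided by peak length and by library total, here the reads in the library's own peaks. The methods describe shifting of fragments after peak calling, before footprinting, and do not say whether the FPKM rest on shifted fragments, which affects reads at a peak's edge. Peaks a library lacked are listed at 0, so only peaks called in all 6 libraries were used.

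Values were taken as log2(FPKM + 0.5) with a mean of at least 1 FPKM, keeping the authors' normalization. Reads per library were recovered from FPKM steps, and 1332 to 5076 low values were checked in each library, all within 0.15 of whole reads. With 1 library per condition no test was run and no p-value is given. The members and lists were chosen with earlier results of these data known. Named peaks were the 10 with the largest smallest difference, the 5 with the highest mean, the 5 on each side of the rule, the 5 largest FSK rises and falls, and the longest series and window with the most members, and a few of each are described. Nearest genes, promoters and motifs were planned but not analysed here, since no rn6 sequence or annotation was used. The calculations were tested on simulated data. Alternatives were other pseudocounts, filters, scalings, fold limits, neighbour distances, the stretches kept, a counting bound and choices that left out 1 treatment. The software was matplotlib 3.10.9, scipy 1.17.1, pandas 2.3.3, numpy 2.4.6 and Python 3.11.15.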

Additional observations from a re-analysis of the deposited data

Results flagged for a closer look

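The 4 chromosome stretches left out of the set held 519 further shared peaks that met the 2-fold rule in every treatment, higher in the mutant. They stand here because they lie outside the peaks the comparisons used. On chromosome 5, 299 of 1000 shared peaks in the stretch (29.9%) met the rule, and on chromosome 9 217 of 1000 (21.7%) did. The stretches on chromosomes 4 and 15 held 2 of 400 and 1 of 200 such peaks (0.5% each), below the 2.35% of the rest of the genome. The stretches were picked for a shift between genotypes, upward in the mutant on chromosomes 5 and 9 and downward on chromosomes 4 and 15. These shares therefore follow from how the stretches were picked and are no result.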

How the results depend on the processing

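No paired analysis was possible because no 2 groups share more than 1 replicate and no result comes from a test, and with 1 library per condition no replicate could be left out. Of 153 alternative values, 98 stayed within the order-statistic interval of the median or, for counts, within 1.5 times. Another 54 moved further and 1 changed sign. The interval treats the peaks as separate draws, so it does not measure the spread between libraries or clones. The alternatives that left out chromosomes 5 and 9 or the 17 shifted windows were chosen after the data were seen. Where a value moved, the cause was not tested beyond what the alternative itself changes. The 1975 higher and 6417 lower peaks became 5185 and 12049 with a 1.5-fold rule and 373 and 1320 with a 4-fold rule. Centring the libraries on their medians gave 2628 higher and 5225 lower peaks and kept all 1975, a pseudocount of 1 kept 84.2% of them, and 74.5% remained where the counting bound had to reach 2-fold.

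The median FSK change of the higher peaks in WT, -0.087, turned to 0.012 when FSK was left out of the choice. It was -0.11 with a pseudocount of 0.1 and -0.11 with CON left out of the choice, -0.026 after centring, -0.028 after quantile normalization, -0.051 with the 4-fold rule and -0.056 with the 4 stretches kept. In Med14 S983A it moved from -0.16 to -0.050 after centring, -0.082 after quantile normalization and -0.12 with the stretches kept. The median Ex-4 change in WT moved from -0.020 to -0.0026 after centring, -0.0056 with the stretches kept, -0.0057 with Ex-4 and -0.039 with CON left out of the choice.

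The median difference of neighbours, 0.19, was 0.30 after centring, 0.21 after quantile normalization, 0.14 with chromosomes centred, 0.14 with the 1.5-fold and 0.22 with the 4-fold rule, 0.24 with the stretches kept, 0.29 within 2 kb, 0.093 within 100 kb and 0.16 without chromosomes 5 and 9. The held-out CON median, 1.53, was 1.58 and 1.49 with pseudocounts of 0.1 and 1, 1.56 with a mean of at least 3 FPKM, 1.48 after centring, 1.49 after quantile normalization, 0.99 and 2.66 with the 1.5-fold and 4-fold rules, 1.44 with the stretches kept and 1.72 with the counting bound. The held-out Ex-4 median, 1.57, was 1.60 with a pseudocount of 0.1, 1.48 after centring, 1.51 after quantile normalization, 1.00 and 2.71 with the 1.5-fold and 4-fold rules, 1.46 with the stretches kept and 1.76 with the counting bound. The held-out FSK median, 1.29, was 1.33 with a mean of at least 3 FPKM, 1.35 after centring, 1.33 with chromosomes centred, 0.83 and 2.43 with the 1.5-fold and 4-fold rules, 1.25 with the stretches kept and 1.49 with the counting bound. The median length, 616 bp, was 598 bp with a pseudocount of 0.1, 593 after quantile normalization, 578 and 745 with the 1.5-fold and 4-fold rules and 651 with the counting bound. Depth limits the weakest peaks, and the spread between libraries of 1 condition is not known.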

Other observations

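Among the 143 with a WT mean of 10 FPKM or more, the largest ratio was on chromosome 19 from 25307625 to 25308360, chosen after its values were seen. This peak had 8.07 FPKM in WT CON, 11.7 in WT Ex-4 and 15.1 in WT FSK, and 43.6, 54.7 and 71.8 FPKM in Med14 S983A, with log2 differences of 2.36, 2.17 and 2.21. On chromosome 14 from 63095433 to 63096095, chosen in the same way, the levels were 6.26, 8.13 and 18.2 FPKM in WT and 27.4, 41.7 and 67.4 FPKM in the mutant, and FSK changed them by 1.47 in WT and by 1.28 in the mutant. Both peaks were under the median of all shared peaks in WT CON (8.85 FPKM) and over it in WT FSK (8.46 FPKM). They were higher under Ex-4 than in CON, and higher still under FSK, in either genotype.

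The largest Ex-4 rise of a member in WT, picked with its values known, lay at chromosome 13 from 107103395 to 107103978. Its levels were 0.702, 2.66 and 4.24 FPKM in WT CON, Ex-4 and FSK and 4.01, 7.86 and 11.3 FPKM in Med14 S983A. On the log2 scale Ex-4 changed it by 1.39 in WT and by 0.89 in the mutant.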
